A study of Mus musculus with 8 samples.

Results

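The centrosome and augmin genes are the 54 genes, of 14861 in the deposited table, whose symbols start with Cep, Haus, Tubg or Tubgcp and a number, together with Cdk5rap2, Pcnt, Sass6, Cntrl and Cntrob. The rule matches names and uses no measured value, but it and the roles below were set with earlier results of these data known. All 54 passed the filter on low values, a mean of at least 0.5 over the 4 columns. The samples were mouse FUCCI2 induced pluripotent stem cells, a clonal line that carries a fluorescent cell-cycle reporter, grown on irradiated feeder cells with serum, LIF and inhibitors of MEK and GSK3. All groups but the asynchronous one were treated with nocodazole, a microtubule poison, at 200 ng/ml for 6 h and collected by mitotic shake-off. They were taken at once (mitosis), or after release into fresh medium for 1 h (early G1) or 3 h (late G1), and untreated cycling cells formed the asynchronous group, called cycling cells below. The labels list 8 PRO-seq libraries, 2 per group, and the table holds 1 combined column per group. No difference given here therefore has a replicate check, and no SD or p-value can be given. The table's early and late G1 headings were taken, by meaning, as the releases of 1 h and 3 h. PRO-seq reads RNA polymerases engaged in transcription, so a value reports ongoing transcription of a gene and not its RNA or protein. Because these are bulk samples, fewer cells transcribing a gene and less transcription per cell cannot be told apart.

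The centrosome is the main microtubule-organising centre of animal cells. A pair of centrioles is surrounded by pericentriolar material, which holds the gamma-tubulin ring complex, the template on which new microtubules start. Augmin, also called the HAUS complex, binds the side of an existing microtubule and brings a gamma-tubulin complex to it, so that microtubules branch within the spindle. Centrioles are duplicated once per cell cycle, after G1, and the older centriole carries the appendages from which a primary cilium grows.

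The defining markers fitted the labelled cell type. All 9 pluripotency markers in the table (of 10 listed) had signal in every column, and their summed signal was 57.0 in mitosis, 1297 in early G1, then 1154 in late G1 and 1145 in cycling cells. The fibroblast markers, which would read the feeder cells, were also present: 9 of 15 were in the table, with a summed signal of 4.48 in mitosis, 134 in early G1, then 130.2 in late G1 and 87.7 in cycling cells, and S100a4 and Twist1 were listed at 0 in mitosis. Fn1 alone had 3.26, 106, 61.3 and 53.4 in the same order. The sum hides that 6 of the 9 were at least 2-fold higher in late than in early G1, and 0 lower. The authors' columns sum to 16863 in mitosis, 361203 in early G1, then 326086 in late G1 and 309144 in cycling cells, so every comparison with mitosis rests on their scaling.

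**Figure D1:**
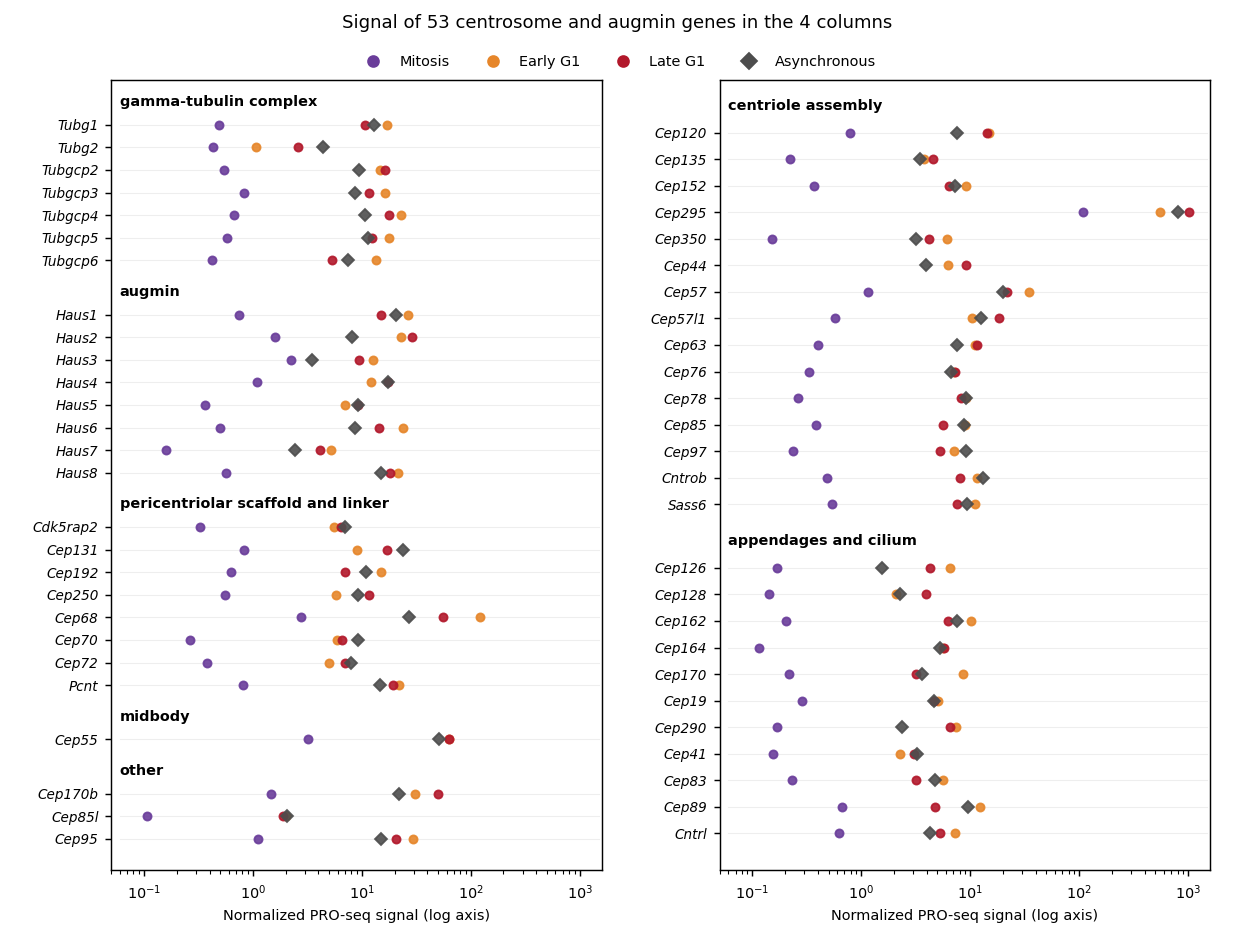
Normalized PRO-seq signal (log axis) of 53 of the 54 genes, grouped by the role of their products, with circles for mitosis, early G1 and late G1 and a diamond for cycling cells; each point is the authors' combined value. The mitotic point lies far to the left for nearly every gene, Haus3 and Tubg2 have mitotic points closer to the others, and Cep44, listed at 0 in mitosis, has no mitotic point.

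The members' signal covered a like range in the columns outside mitosis, with Cep295 apart from the rest. The median member had 0.489 in mitosis, 10.3 in early G1, then 8.15 in late G1 and 8.70 in cycling cells, and the median gene of the table had 0.489, 11.8, 10.9 and 9.43. Cep295, whose product converts new centrioles into centrosomes, had 109 in mitosis, 553 in early G1, then 1026 in late G1 and 805 in cycling cells. Its mitotic value ranked 1 among all 14861 genes. The table lists it at chromosome 9, position 15318013, on the minus strand, 39775 bp from the nearest RefSeq start of the gene and near the far end of its span (15316914 to 15357849). The small RNA genes Scarna9 and Gm24339 lie in the same span, 8276 and 8451 bp from the listed position, and the gene Taf1d ends 1016 bp from it. The signal cannot be assigned to Cep295 with certainty, and the part of these neighbours in it was not tested. The results below were about the same with and without this gene. Of the other 44 members with a RefSeq start in the tables used here, 43 were listed within 250 bp of one and Cep63 at 395 bp. The remaining members had no such start. Measured to the start of the gene's RefSeq span instead, the furthest of these were Haus1 at 6105 bp and Cep120 at 1089 bp.

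The promoters of the members at both ends of the comparison of late G1 with cycling cells are shown because these genes set the range of the results. Each window runs from 250 bases before to 50 after the RefSeq start on GRCm38.p6, and is written 5′ to 3′ on the strand of the gene. Capitals mark the motifs searched on both strands: the cell-cycle homology region (CHR) as TTTGAA or TTCGAA, the CCAAT box, and an E2F core as TTGGCGC or TTCCCGC. As background, the CHR is bound by the MuvB core of the DREAM complex, which represses G2 and mitosis genes in G1, the CCAAT box by NF-Y, and the E2F site by E2F factors. The 4 with the smallest ratio come first among the members whose windows were eligible for display.
Cep89 (chr7:35396813-35397112, plus strand): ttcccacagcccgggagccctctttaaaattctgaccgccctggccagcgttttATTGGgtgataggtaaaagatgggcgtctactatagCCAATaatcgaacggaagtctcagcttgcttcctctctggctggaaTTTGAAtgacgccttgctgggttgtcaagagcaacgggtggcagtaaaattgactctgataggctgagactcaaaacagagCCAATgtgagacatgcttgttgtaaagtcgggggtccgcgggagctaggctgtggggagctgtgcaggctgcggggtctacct
Cep97 (chr16:55934799-55935098, minus strand): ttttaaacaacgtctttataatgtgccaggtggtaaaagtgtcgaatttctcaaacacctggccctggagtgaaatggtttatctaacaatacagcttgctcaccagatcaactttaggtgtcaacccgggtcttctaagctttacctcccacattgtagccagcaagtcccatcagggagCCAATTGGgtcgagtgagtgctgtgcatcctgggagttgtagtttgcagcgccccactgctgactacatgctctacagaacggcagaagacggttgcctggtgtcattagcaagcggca
Tubg2 (chr11:101155634-101155933, plus strand): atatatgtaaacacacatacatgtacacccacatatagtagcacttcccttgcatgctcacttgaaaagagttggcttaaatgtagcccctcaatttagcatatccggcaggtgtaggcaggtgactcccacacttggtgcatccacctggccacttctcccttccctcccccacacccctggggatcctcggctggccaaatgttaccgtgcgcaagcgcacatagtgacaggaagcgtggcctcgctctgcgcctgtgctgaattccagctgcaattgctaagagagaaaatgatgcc
Cep85 (chr4:134187036-134187335, minus strand): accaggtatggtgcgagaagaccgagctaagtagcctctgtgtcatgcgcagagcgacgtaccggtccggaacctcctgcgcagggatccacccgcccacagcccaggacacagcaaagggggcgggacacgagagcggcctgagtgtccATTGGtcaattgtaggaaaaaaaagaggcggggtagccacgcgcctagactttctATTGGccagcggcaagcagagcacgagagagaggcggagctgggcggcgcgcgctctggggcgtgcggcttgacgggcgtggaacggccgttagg
The 2 with the largest ratio follow.
Cep290 (chr10:100487332-100487631, plus strand): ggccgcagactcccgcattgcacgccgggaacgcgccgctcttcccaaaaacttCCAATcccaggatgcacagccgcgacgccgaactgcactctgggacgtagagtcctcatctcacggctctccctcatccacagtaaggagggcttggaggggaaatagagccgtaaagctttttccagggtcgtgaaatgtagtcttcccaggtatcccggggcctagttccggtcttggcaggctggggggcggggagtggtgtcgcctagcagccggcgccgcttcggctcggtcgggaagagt
Haus2 (chr2:120609132-120609431, plus strand): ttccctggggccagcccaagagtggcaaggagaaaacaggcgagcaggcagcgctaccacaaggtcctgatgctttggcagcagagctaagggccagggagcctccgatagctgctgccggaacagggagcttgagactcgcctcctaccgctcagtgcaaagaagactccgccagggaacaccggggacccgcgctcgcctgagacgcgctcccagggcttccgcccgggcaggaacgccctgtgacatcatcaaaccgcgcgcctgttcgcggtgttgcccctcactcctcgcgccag

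The Cep89 window held 1 CHR and 3 CCAAT boxes, those of Cep97 and Cep85 held 2 CCAAT boxes each, and that of Cep290 held 1. The matches in Cep97 share letters, since CCAAT and its reverse ATTGG overlap there. None of the letters searched was found in the windows of Tubg2 and Haus2. Over the 43 members with a window near their listed start, 10 held a CHR (23.3%), 19 a CCAAT box (44.2%), 13 an E2F core (30.2%) and 4 both a CHR and a CCAAT box (9.30%). Among all 9751 genes with such a window, the shares were 12.9%, 38.7%, 12.4% and 5.44%. Of the 18 members below their asynchronous signal in late G1, 6 held a CHR, 6 a CCAAT box and 4 an E2F core. Of the 25 at or above it, 4 held a CHR, 13 a CCAAT box and 9 an E2F core. In each set 2 members held both a CHR and a CCAAT box. These splits were not tested. These matches describe letters in a window and not binding.

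The first comparison asked how much of the members' transcription remained in mitosis. With a ratio of (signal + 0.1), 52 of 53 members were at least 2-fold lower in mitosis than in cycling cells and none was 2-fold higher, where 99.1% of all genes were lower and 0.0208% higher. The median log2 ratio was -3.87, against -3.89 over all genes, and the members kept a median of 5.74% of their asynchronous signal, where the median gene kept 5.36%. The count is therefore that of the genome as a whole. The column scaling sets it: after rescaling to equal medians 5 members were at least 2-fold higher and 1 lower, and after quantile normalization 3 were higher and 1 lower.

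Haus3 and Haus2 kept the largest shares of their asynchronous signal in mitosis. Haus3 had 2.23 in mitosis and 3.53 in cycling cells, 63.3% of the asynchronous signal, and was the 1 member within 2-fold. After both rescalings its mitotic value was at least 2-fold above its asynchronous one. Haus3 shares its start region with Poln, a DNA polymerase gene on the same strand whose start is listed 26 bp away. Poln had 0.0892 in mitosis and 0.938 in cycling cells, so the table gives these neighbours different values, and the sources used here do not say how reads were divided between them. Haus2 had 1.61 in mitosis and 8.10 in cycling cells, 19.9%, and was likewise at least 2-fold higher in mitosis after both rescalings.

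Among the other members, Cntrl, which encodes the subdistal appendage protein centriolin, had 0.622 in mitosis and 4.31 in cycling cells (14.4%) and was, like Haus3 and Haus2, at least 2-fold higher in mitosis after both rescalings. Cep126 had 0.167 and 1.54 (10.8%). At the low end, Cep164, which encodes a distal appendage protein, had 0.114 in mitosis and 5.33 in cycling cells (2.15%). Cep97, whose product caps centrioles and holds back cilium growth, had 0.238 and 9.13 (2.61%), Cep162 0.205 and 7.52 (2.73%), Cep70 0.263 and 9.33 (2.81%), Cep78 0.261 and 9.13 (2.86%), and Cep131, which encodes a protein of centriolar satellites, 0.822 and 23.8 (3.46%). In all, 51 of the 54 members kept between 2% and 15% of their asynchronous signal. The exceptions were Haus3, Haus2 and Cep44, the last listed at 0 in mitosis.

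The second comparison followed the first hour after mitosis. In early G1 all 53 members with a mitotic value above 0 exceeded it at least 2-fold, where 99.3% of all genes were higher and 0.00692% lower. The members' median log2 ratio was 4.31, against 4.21 over all genes. After rescaling to equal medians, which removes the genome-wide return, 1 member was at least 2-fold higher and 7 lower, and after quantile normalization 3 were higher and 6 lower.

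Cep68, Haus6, Cep162 and Haus8 had the largest log2 ratios of (signal + 0.1), at 5.41, 5.31, 5.07 and 5.02. Without the pseudocount, which weighs on low mitotic values, the order differs, and Cep164 (48.8-fold) and Cep290 (44.0-fold) exceed Cep68 and Haus8. Cep68, which encodes a protein of the linker that ties the centrioles together, had 121 in early G1 and 2.75 in mitosis, 43.9-fold without the pseudocount. Haus6, the augmin subunit known for reaching towards the gamma-tubulin complex, had 23.8 in early G1 and 0.503 in mitosis, 47.3-fold. Cep162, which encodes a protein of centriole ends at the base of the cilium, had 10.2 in early G1 and 0.205 in mitosis, and Haus8 had 21.6 and 0.571.

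At the other end stood Tubg2, the second of the mouse gamma-tubulin genes. It had 1.08 in early G1 and 0.427 in mitosis, 2.52-fold, the smallest ratio among the members. Cep295 (5.08-fold), Haus3 (5.73-fold) and Cep250 (10.3-fold) followed. The last encodes C-NAP1, which anchors the linker to the centriole end, and had 5.77 in early G1 and 0.559 in mitosis. Tubg2 and Cep250 were below their asynchronous signal in early G1, while Haus3 was above it.

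By early G1, 52 of 54 members had at least 50% of their asynchronous signal, where 89.6% of all genes did. The exceptions, Tubg2 and Cep131, passed 50% in late G1. In early G1 38 members were at or above their asynchronous signal, where 63.4% of all genes were, and in late G1 32 were, where 62.3% were. The members fall into 26 that were at or above it at both times (47.7% of all genes), 12 in early G1 alone (15.8%), 6 in late G1 alone (14.6%) and 10 at neither time (21.9%). The 10 at neither time include Tubg2, Cdk5rap2, Cep131, Cep70, Cep72, Cep97 and Cntrob. All these counts depend on the authors' column scaling, under which the median gene was at 124% in early G1 and 116% in late G1.

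**Figure D2:**
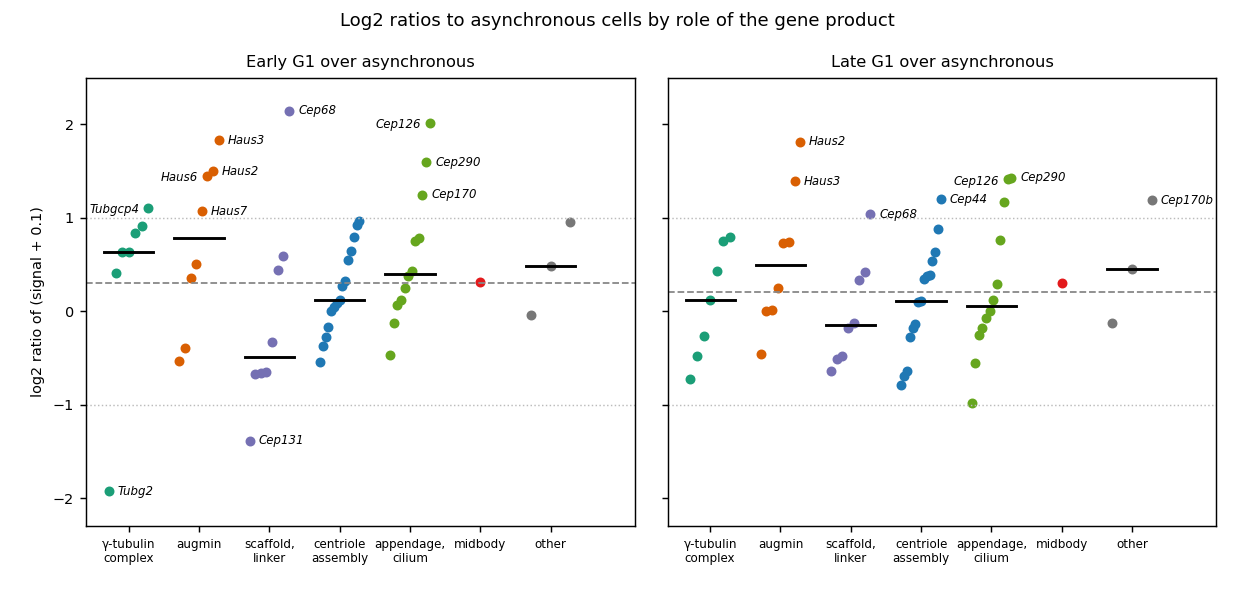
Log2 ratio of (signal + 0.1) of each gene in early G1 (left) and late G1 (right) over cycling cells, by role; each point is 1 gene, black bars are medians of a role, the dashed line is the median of all genes and dotted lines mark 2-fold. Augmin has the highest role median in early G1 (0.79), and Tubg2 lies below the other gamma-tubulin complex genes. The scaffold and linker group, which also takes in the satellite genes Cep131 and Cep72, has the lowest (-0.49).

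Against cycling cells, early G1 signal was higher by 2-fold or more in 9 members and lower in 2, where 17.7% of all genes were higher and 9.53% lower. With equal medians the members' split was 6 higher and 2 lower, and with quantile normalization 7 and 2. The members' median log2 ratio was 0.39, against 0.30 over all genes. The spread among the members was wide, from -1.93 for Tubg2 to 2.15 for Cep68. Role medians ran from -0.49 (scaffold and linker) to 0.79 (augmin), but the ranges of the roles overlapped. Scaffold and linker genes ran from -1.38 to 2.15 and augmin genes from -0.53 to 1.83. A difference between roles was not tested.

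The gamma-tubulin complex consists of gamma-tubulin itself and the proteins GCP2 to GCP6 that hold it in a ring, encoded by Tubgcp2 to Tubgcp6. In early G1, 6 of the 7 genes were above their asynchronous signal, by 1.34-fold to 2.17-fold, where 63.4% of all genes were at or above theirs. Tubg1, the main gamma-tubulin gene (chromosome 11, TSS at 101119938), had 0.492 in mitosis, 17.1 in early G1, then 10.6 in late G1 and 12.8 in cycling cells. Tubg2, listed 35969 bp away on the same strand, had 0.427 in mitosis, 1.08 in early G1, then 2.61 in late G1 and 4.38 in cycling cells. Tubg1 was thus above its asynchronous level in early G1 and below it in late G1, while Tubg2 was at 24.6% and then 59.7%. The ratio of early G1 to cycling cells was -1.93 on the log2 scale for Tubg2 and 0.41 for Tubg1. Gamma-tubulin genes are near-identical copies, and the sources used here do not say how reads shared by them were counted.

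The 5 GCP genes moved within a narrower range. Tubgcp4 had 0.668 in mitosis, 23.0 in early G1, then 17.95 in late G1 and 10.6 in cycling cells, 2.17-fold above the asynchronous level in early G1. Tubgcp2 and Tubgcp3, which encode the subunits that pair with gamma-tubulin in the small complex, were highest in different columns. Tubgcp2 had 0.546, 14.7, 16.5 and 9.43 in the same order, highest in late G1, and Tubgcp3 had 0.827, 16.4, 11.7 and 8.66, highest in early G1. Tubgcp5 had 0.580, 17.6, 12.3 and 11.3, and Tubgcp6 had 0.420, 13.5, 5.38 and 7.52. Tubgcp6 was the 1 GCP gene below its asynchronous level in late G1, at 71.5%.

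**Figure D3:**
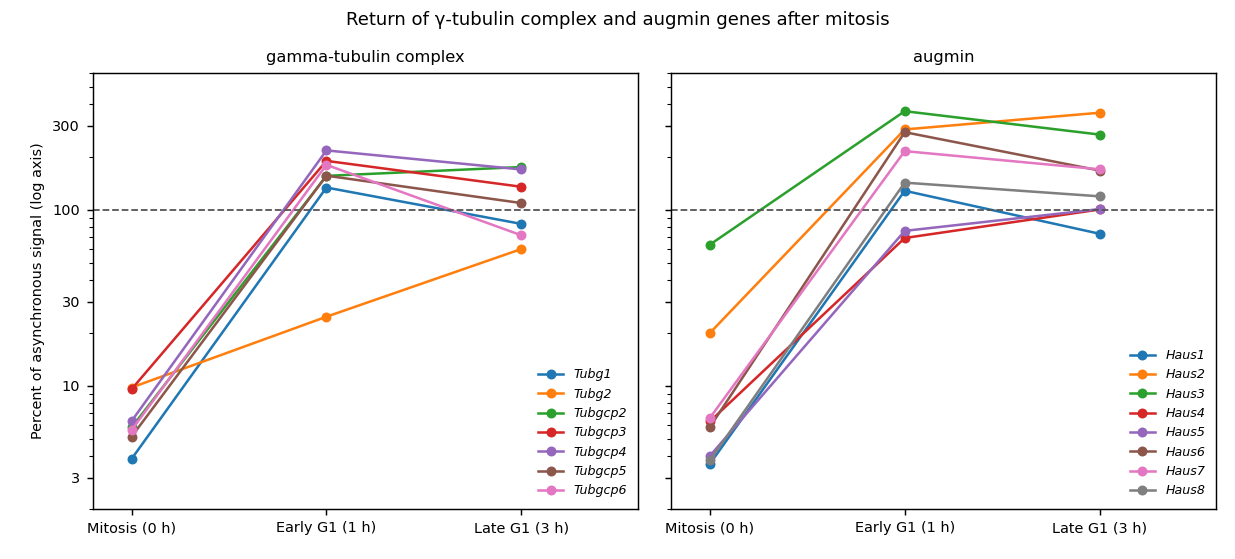
Percent of the asynchronous signal (log axis) in mitosis, early G1 (1 h) and late G1 (3 h) for the genes of the gamma-tubulin complex (left) and augmin (right); lines join the authors' combined values and the dashed line marks 100%. Tubg2 reaches 24.6% in early G1 while the other 6 genes of its complex pass 100%, and Haus3 and Haus2 start from 63.3% and 19.9% in mitosis.

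Augmin has 8 subunits, and all 8 genes were in the table. In early G1 6 of them were above their asynchronous signal, where 63.4% of all genes were at or above theirs. Of the 6, 4 were at least 2-fold higher (Haus2, Haus3, Haus6 and Haus7), where 17.7% of all genes were. Haus7 fell below 2-fold with a pseudocount of 0.5, with equal medians and with quantile normalization. The role's median was 0.49 above that of all genes on the log2 scale (0.48 with equal medians, 0.46 with quantile normalization). Haus2 had 23.1 in early G1, then 28.8 in late G1 and 8.10 in cycling cells. Haus3 had 12.8, 9.42 and 3.53 in the same columns. Haus6 had 23.8, 14.4 and 8.64, and Haus7, on the X chromosome, 5.19, 4.09 and 2.41. All 4 were above the asynchronous level at both times, by 1.67-fold or more.

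The other augmin genes stayed closer to the asynchronous level. Haus8, whose product binds the microtubule, had 0.571 in mitosis, 21.6 in early G1, then 18.1 in late G1 and 15.2 in cycling cells. Haus1 had 0.745, 26.5, 15.1 and 20.7 in the same order, so it was at 128% in early G1 and 72.9% in late G1. Its listed start lies 6105 bp from the start of its RefSeq span. Haus4 had 1.09, 12.1, 17.5 and 17.5, and Haus5 had 0.366, 6.95, 9.24 and 9.17. These last 2 reached their asynchronous level only in late G1, at 100.2% and 100.7%, having been at 69.0% and 75.7% in early G1. The median gene was at 116% in late G1, so reaching the level depends on the authors' column scaling. The listed values of the augmin genes ranged in early G1 from 69.0% (Haus4) to 363% (Haus3) of the asynchronous signal. With 1 value per gene and group, a difference in course between them was not tested. Haus3 and Haus2 start 26 and 68 bp from Poln and Lrrc57, and how reads were divided between such neighbours is not known.

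The 8 genes grouped as scaffold and linker had the lowest role median in early G1, 0.79 below that of all genes on the log2 scale (0.79 with equal medians, 0.71 with quantile normalization). The group also takes in the satellite genes Cep131 and Cep72, whose log2 ratios of early G1 to cycling cells were -1.38 and -0.66. The median therefore does not describe the scaffold and linker alone. Of the 8 genes, 5 were below their asynchronous level, where 63.4% of all genes were at or above theirs. Cep131 had 0.822 in mitosis, 9.05 in early G1, then 17.1 in late G1 and 23.8 in cycling cells, the other member at least 2-fold lower in early G1 (38.0%). Cep250 had 5.77 in early G1, then 11.7 in late G1 and 9.27 in cycling cells. Cep70 had 5.91, 6.54 and 9.33 in the same columns, Cep72, which encodes a satellite protein, 4.99, 7.04 and 7.97, and Cdk5rap2, whose product binds and activates the gamma-tubulin complex, 5.56, 6.45 and 7.03. All 5 were higher in late G1 than in early G1.

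The scaffold genes Pcnt and Cep192 and the linker gene Cep68 went the other way. Pcnt, which encodes pericentrin, had 0.814 in mitosis, 22.0 in early G1, then 19.5 in late G1 and 14.6 in cycling cells. Cep192, whose product recruits pericentriolar material and the mitotic kinases to it, had 0.635, 14.98, 7.06 and 11.0. Cep68 had 2.75, 121, 56.0 and 27.1, the highest early G1 to asynchronous ratio among the members (4.44-fold) and also past 2-fold in late G1. Cep68 and Cep250, both of the linker, thus lay on opposite sides of the asynchronous level in early G1, at 444% and 62.2%.

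Of the 15 centriole assembly genes, none was 2-fold from its asynchronous level in early G1, with log2 ratios from -0.54 (Cep295) to 0.96 (Cep120). Over all genes 17.7% were higher and 9.53% lower. Cep120 lay close to the threshold, and the signal listed for Cep295 cannot be assigned to it with certainty. With 15 genes the count is not read as a trait of the role. Sass6, which encodes the central protein of the cartwheel that starts a new centriole, had 0.541 in mitosis, 11.2 in early G1, then 7.63 in late G1 and 9.25 in cycling cells. Cep152 and Cep63, whose products form the ring that recruits the kinase PLK4, had 9.15 and 11.0 in early G1, 6.44 and 11.7 in late G1, and 7.28 and 7.49 in cycling cells. Cep135, a cartwheel and centriole wall gene, had 3.80, 4.54 and 3.47 in the same columns. Cntrob, which encodes the daughter centriole protein centrobin, had 11.6, 8.03 and 13.1, and was below its asynchronous level at both times. Cep120, a centriole elongation gene, had 14.96, 14.1 and 7.62. Cep44 was listed at 0 in mitosis and had 6.24, 9.24 and 3.96.

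Of the 12 appendage and cilium genes, 3 exceeded their asynchronous signal at least 2-fold in early G1 and none was lower by that much. Over all genes 17.7% were higher and 9.53% lower, so these counts are not read as a trait of the role. With equal medians Cep170 fell below 2-fold. Cep290, which encodes a protein of the ciliary transition zone, had 0.167 in mitosis, 7.35 in early G1, then 6.54 in late G1 and 2.36 in cycling cells. Cep126 had 0.167, 6.55, 4.27 and 1.54 in the same order. Cep170, a subdistal appendage gene, had 0.216, 8.65, 3.15 and 3.58, so it was at 242% in early G1 and 88.0% in late G1. Cep164 had 0.114, 5.59, 5.80 and 5.33, close to its asynchronous level at both times, and Cntrl had 0.622, 7.32, 5.32 and 4.31.

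Cep55, whose product gathers the ESCRT machinery at the midbody so that daughter cells can separate, had 3.20 in mitosis, 62.9 in early G1, then 62.6 in late G1 and 50.7 in cycling cells. It was at 124% and 123% of the asynchronous signal, where the median gene was at 124% and 116%. With equal medians its log2 ratios to cycling cells were -0.01 in early G1 and 0.10 in late G1. Of 5 cyclin and mitotic genes used as a check of the cell-cycle state, 4 were lower by 2-fold or more at both times and Ccnb2 was not, with 13.9 in early G1, then 16.5 in late G1 and 19.8 in cycling cells. Among the 4, Plk1 had 7.17 in early G1, then 5.38 in late G1 and 51.1 in cycling cells, Top2a 6.48, 12.5 and 76.3, and Ccnb1 22.7, 17.2 and 67.4.

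**Figure D4:**
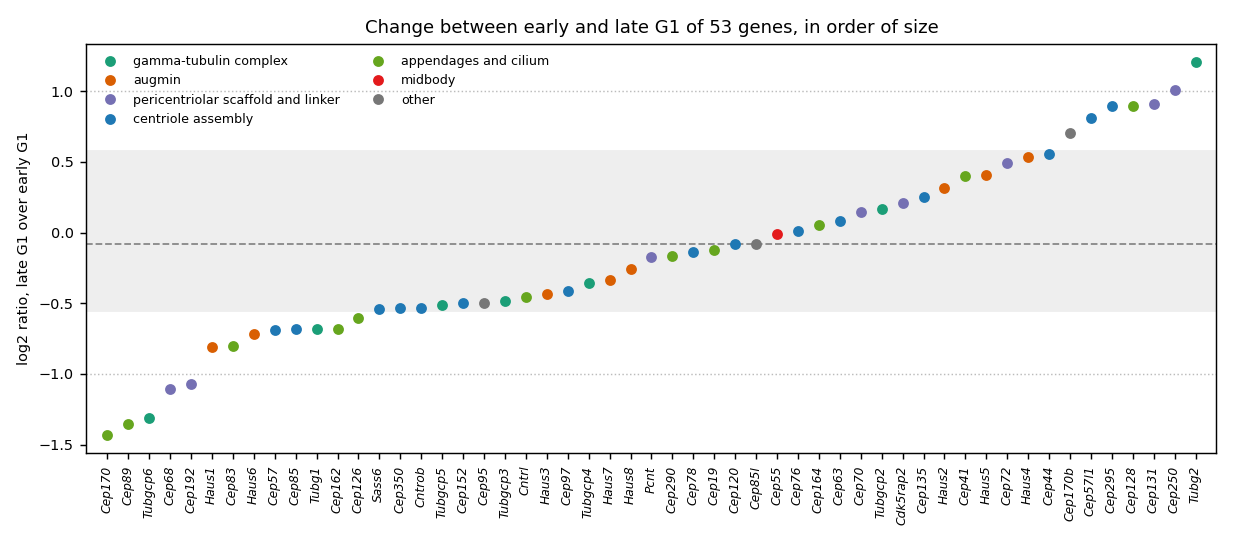
Log2 ratio of (signal + 0.1) in late G1 over early G1 for 53 of the 54 genes in order of size, coloured by role; the dashed line and grey band are the median and the middle 50% of all genes, and dotted lines mark 2-fold. Cep170, Cep89, Tubgcp6, Cep68 and Cep192 lie at or below -1.07, and Tubg2 and Cep250 lie above 1.

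Between the releases, 5 members were at least 2-fold lower in late G1 than in early G1 and 2 higher, where 7.52% of all genes were lower and 15.1% higher. The median log2 ratio was -0.17 for the members and -0.08 for all genes. With equal medians the split was 3 lower and 4 higher, and with quantile normalization 5 and 2. With a pseudocount of 0.5 none was 2-fold higher. Fibroblast markers moved with this comparison: 6 of 9 were higher by 2-fold or more in late G1, and their part in the members' values was not tested.

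The members lower in late G1 came from several structures. Cep170 had 3.15 in late G1 and 8.65 in early G1, a log2 ratio of -1.43. Cep89, a distal appendage gene, had 4.78 in late G1 and 12.4 in early G1 (-1.36), and Tubgcp6 had 5.38 and 13.5 (-1.31). Cep68 had 56.0 and 121 (-1.11), and Cep192 had 7.06 and 14.98 (-1.07). All 5 were above their asynchronous level in early G1, and 4 of them, all but Cep68, were below it in late G1. Over all genes 15.8% were at or above it in early G1 alone. These members were picked by a ratio of the same columns, so their positions are not read as a separate result.

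The members higher in late G1 had both been below their asynchronous signal in early G1, which picking them by this ratio favours. Tubg2 had 2.61 in late G1 and 1.08 in early G1, a log2 ratio of 1.20, and Cep250 had 11.7 and 5.77 (1.01). Cep250 only just passed the threshold, and with a pseudocount of 0.5 neither gene passed it. Tubg2 has a low signal, a mean of 2.12 over the 4 columns, so a minimum mean of 2.5 leaves it out. It also fell below 2-fold with quantile normalization. Below the threshold, Cep131 had 17.1 and 9.05 (0.91), Cep295 1026 and 553 (0.89), and Cep128, a subdistal appendage gene, 3.92 and 2.06 (0.89). Cep128 was at 91.0% of its asynchronous signal in early G1 and 173% in late G1.

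In late G1, 8 members were at least 2-fold above cycling cells and none was 2-fold below, where 16.9% of all genes were higher and 5.14% lower. The split depended on scaling: with equal medians 4 were higher and 1 lower, and with quantile normalization 4 were higher and 4 lower. The median log2 ratio was 0.12, against 0.21 over all genes. Of the 9 fibroblast markers, 4 were higher by 2-fold or more in this comparison and 1 lower, and their part in the members' values was not tested. The higher members included Haus2 (3.55-fold), Cep290 (2.77-fold), Cep126 (2.77-fold), Haus3 (2.67-fold), Cep44 (2.33-fold), Cep170b (2.29-fold) and Cep68 (2.06-fold). Of these, Haus2, Haus3 and Cep290 stayed at least 2-fold higher after both rescalings. Cep170b had 50.4 in late G1, against 22.1 in cycling cells.

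At the low end of late G1 lay Cep89, Cep97, Tubg2 and Cntrob, with 50.04%, 57.7%, 59.7% and 61.4% of their asynchronous signal. Cep89 had 4.78 in late G1 and 9.56 in cycling cells, a log2 ratio of -0.98, just inside the 2-fold threshold. Cep97 had 5.26 in late G1 and 9.13 in cycling cells, and Cntrob had 8.03 and 13.1. Under the authors' scaling, all 54 members were thus within 2-fold of the asynchronous level or above it in late G1.

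**Figure D5:**
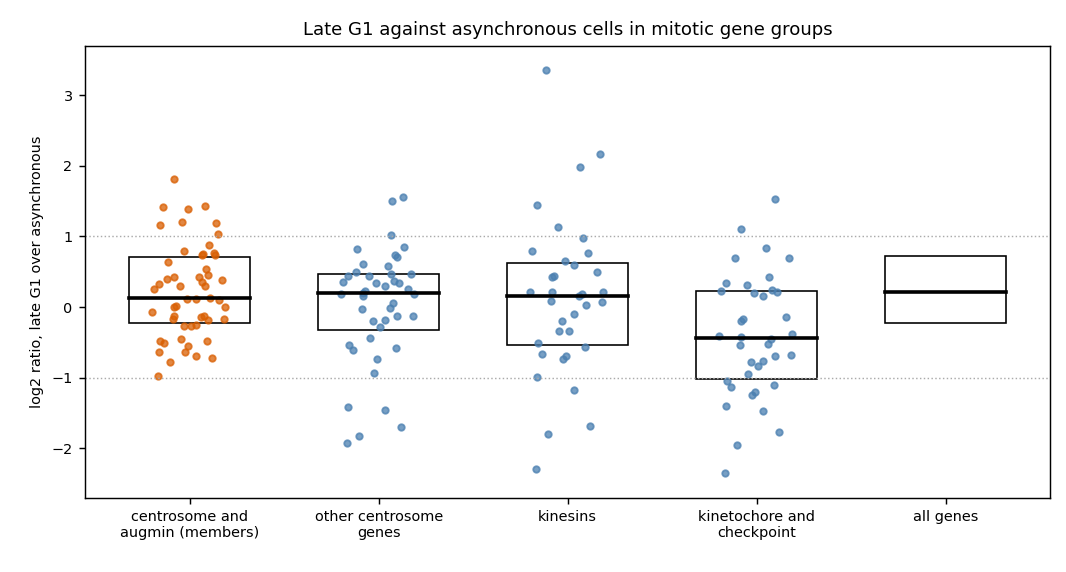
Log2 ratio of (signal + 0.1) in late G1 over cycling cells for the centrosome and augmin genes, 44 other centrosome genes, 35 kinesin genes, 38 kinetochore and checkpoint genes and all genes; points are genes (not drawn for all genes), boxes the middle 50%, thick bars medians and dotted lines mark 2-fold. The members' median is 0.12 and no member is at least 2-fold lower, where 5.14% of all genes are. Of the 38 kinetochore and checkpoint genes, 10 are. Cep89 lies at -0.98, and 1 member is at least 2-fold lower with equal medians and 4 with quantile normalization.

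Other genes of the centrosome, from a list of 46 of which 44 were in the table, were set beside the members. In late G1, 3 were at least 2-fold higher than in cycling cells and 5 lower, where 16.9% of all genes were higher and 5.14% lower. Their median log2 ratio was 0.19. The 5 lower genes were Tpx2 (2.92 in late G1 and 11.4 in cycling cells), Aurka (13.6 and 48.7), Tacc3 (9.92 and 32.4), Aspm (4.99 and 13.9) and Nek2 (10.6 and 28.6). Tpx2, Aurka and Tacc3 are spindle assembly genes, Aurka encoding the Aurora A kinase, and Nek2 encodes the kinase that releases the centrosome linker. The 3 higher genes were Ccp110 (26.5 and 8.99), which encodes the partner of CEP97 in the centriole cap, Dzip1 (29.6 and 10.4) and Sclt1 (2.17 and 1.02), a distal appendage gene.

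The centriole duplication genes Plk4, Stil and Cenpj, and also Nedd1 and Pcm1, were within 2-fold of the asynchronous level in both releases. Plk4, the kinase that starts duplication, had 0.722 in mitosis, 21.3 in early G1, then 11.3 in late G1 and 12.4 in cycling cells. Stil had 0.345, 7.01, 4.04 and 5.90 in the same order, and Cenpj had 0.423, 4.27, 7.49 and 5.29. Nedd1, whose product ties the gamma-tubulin complex to the centrosome and to augmin, had 0.223, 5.45, 5.35 and 4.22, and Pcm1, the centriolar satellite scaffold gene, 0.639, 17.1, 13.2 and 10.4.

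Kinetochore and spindle checkpoint genes had a median log2 ratio of -0.44 in late G1 against cycling cells, with 10 of 38 at least 2-fold lower and 2 higher. Kinesin genes had a median of 0.16, with 4 of 35 lower and 5 higher. Over all genes 5.14% were lower and 16.9% higher. With 1 value per gene and group, a difference between these lists and the members was not tested.

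The median span of the members on RefSeq was 36692 bp, against 21488 bp for all genes with a match, and spans ran from 5914 bp (Tubg2) to 385966 bp (Cep128). In 18 of 54 members (33.3%) another gene of the table started within 1000 bp on the opposite strand, as it did for 12.8% of all genes, and 17 of the 18 pairs ran head to head. The members lay on 19 chromosomes, 7 of them on chromosome 9.

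Neighbours that share such a region did not always go the same way. In 10 of the 18 pairs member and partner lay on the same side of the asynchronous level in late G1. The like share over all pairs was not computed, and 62.3% of all genes were at or above that level. The count is therefore not read as a result about neighbours. Cep290 and Tmtc3 start 232 bp apart, and Tmtc3 had 87.4 in late G1 and 6.27 in cycling cells, so both were at least 2-fold higher. Haus2 and Lrrc57 start 68 bp apart, and Lrrc57 had 38.8 and 19.3. By contrast Sass6 was at 82.5% while Trmt13, 181 bp away, had 4.86 in late G1 and 1.58 in cycling cells, and Cntrob was at 61.4% while Trappc1, 288 bp away, had 10.3 and 5.31. The sources used here do not say whether counting used strand, so reads near such starts may be shared. Without the 18 paired members the number at least 2-fold higher than in cycling cells was 5 of 36 in early G1 and 4 of 36 in late G1. Over all genes the shares were 17.7% and 16.9%.

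The authors' temporal classes put 21 members in Early_Plateau (38.9%, against 26.3% of all genes), 18 in Early_Spike (33.3%, against 33.6%), 9 in Transient (16.7%, against 24.7%) and 6 in Gradual (11.1%, against 15.4%). The sources used here do not say how these classes were drawn. Over members of a class the median log2 ratios of early and late G1 to cycling cells were 0.96 and 0.44 for Early_Spike, 0.13 and -0.14 for Early_Plateau, 0.49 and 0.80 for Transient, and -0.66 and -0.33 for Gradual. The 6 Gradual members were Cep131, Cep41, Cep70, Cep72, Haus4 and Tubg2. The highest of the 4 columns was early G1 in 29 members (53.7%, against 44.1% of all genes), late G1 in 15 (27.8%, against 34.1%) and asynchronous in 10 (18.5%, against 21.8%).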

How the data were processed

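PRO-seq values came from 1 deposited table with 1 column for each of 4 groups. The authors deposited a normalized signal for each gene, 1 column standing for the 2 libraries of a group in the labels. The submitters' processing notes name cutadapt, Bowtie2, Picard, SAMtools and the build GRCm38 (mm10), without roles; the sources used here do not give the scaling, the use of strand or how libraries were joined, and the depth is unknown. With 1 column per group no test could be run.

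Log2 ratios of (signal + 0.1) were computed for 5 comparisons over 14814 genes with a mean signal of at least 0.5; this understates the change of low genes. Genes listed at 0 in a column were left out of its ratios, and percentages and linear folds carry no pseudocount. A difference was counted from 2-fold. The ratio step was tested on simulated data. Spans and promoters are from RefSeq, GRCm38.p6; promoters were eligible for display where a RefSeq window was given and the gene did not lie on chromosome 18, which leaves out Cntrob and Cep192. Python 3.11.15, pandas 2.3.3 and SciPy 1.17.1 were used. Members, lists and roles were chosen with earlier results of these data known. Genes were named by rule: the 4 largest and 4 smallest ratios of each comparison, all augmin and gamma-tubulin complex genes, and a list of well-studied members. Values of 1 member are not reported here; it stays in the counts and medians.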

Additional observations from a re-analysis of the deposited data

How the results depend on the processing

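The 15 counts and medians of the members were recomputed under 7 other settings and 2 more chosen after seeing the data. A pseudocount of 0.02, no filter on low values, keeping genes at 0, and leaving out Cep295 moved no count by over 1.5 times. Rescaling to equal medians gave 1 lower and 5 higher members in mitosis against asynchronous cells, 7 and 1 in early G1 against mitosis, 3 and 4 in late G1 against early G1, and 1 and 4 in late G1 against asynchronous cells. Quantile normalization gave 1 and 3, 6 and 3, and, in late G1 against asynchronous cells, 4 and 4. Both rescalings remove the genome-wide change by construction. With a pseudocount of 0.5 the higher members in late G1 against early G1 numbered 0, and with a minimum mean of 2.5, which leaves 50 members, 1; that minimum also left 1 lower member in early G1 against asynchronous cells. Without members paired with an opposite-strand start, which leaves 36, 3 members were lower in late G1 against early G1, and 5 and 4 were higher in early and late G1 against asynchronous cells. The members' median log2 ratio minus that of all genes moved by at most 0.18 in any setting; it is close to 0 and its sign changed in 3 of the 5 comparisons. No paired analysis was possible because the table holds 1 column per group, and no replicate could be left out. Small mitotic values and unknown depth limit what the mitotic ratios show.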
